A study of Mus musculus with 36 samples.

Results

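Bisphenol A (BPA), used in making polycarbonate plastics and epoxy resins, binds estrogen receptors weakly. It was compared with vehicle in the peri-ductal stroma of fetal mouse mammary glands that carried both copies of the gene for estrogen receptor α, the ERα(+/+) or wild-type genotype. The members of this comparison were chosen by their labels: stroma, wild type, and BPA or vehicle. They were 6 arrays of 36 in the series, 3 BPA and 3 vehicle. The whole series crossed 2 tissues, 2 genotypes and 3 exposures, with 3 arrays in each of 12 groups. Pregnant C57BL/6 dams had carried osmotic pumps from E8 that gave 250 ng BPA per kg of body weight each day, or 50% DMSO vehicle alone, and the glands were taken at E19. The fetuses were females from matings of ERα(+/-) parents, 1 fetus per litter and genotype, per the methods, so the 6 arrays came from different dams. Stroma within about 100 µm of the epithelium was cut out of sections of the fourth inguinal gland by laser capture, the sections of one gland were pooled, and about 10 ng of RNA was amplified and hybridised to a mouse Affymetrix expression array. Comparison groups were 6 stroma arrays of ERα(-/-) fetuses, 3 BPA and 3 vehicle, and 3 wild-type stroma arrays from dams given 10 ng/kg/day of ethinyl estradiol (EE2), a potent synthetic estrogen, over the same days.

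Before birth the mammary bud sprouts into a fatty bed of connective tissue. The cells next to the ducts are fibroblasts, which lay down matrix proteins such as tenascin C and versican and send growth signals to the epithelium, and preadipocytes on the way to becoming fat cells. Fat-cell maturation is driven by PPARγ and C/EBP transcription factors, which switch on genes for taking up, making and storing lipid. ERα is a ligand-activated transcription factor, while GPER1 is an estrogen-binding receptor of the cell membrane.

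The arrays differed in brightness. Median signal intensity was 44.1, 26.8 and 14.6 on the BPA arrays (replicates 1, 2 and 3), against 37.2, 12 and 37.2 on the vehicle arrays. BPA replicate 3 and vehicle replicate 2, both with a median under 15, are called the dim arrays below. Between 18.5% and 34.9% of probe sets reached a signal of 100, the level under which the study counted a gene as not expressed. The difference between groups in log2 array median was 0.02 (exact permutation test, two-sided, p = 1.0, n = 3 arrays each, with 0.1 the smallest p this design allows). Correlations of log2 values were 0.72 to 0.85 for pairs of arrays of the same exposure. They were 0.72 to 0.86 for pairs of different exposures. The ratio of 3′ to 5′ control signals, a gauge of RNA integrity, ran from 8.8 to 14.5 for Gapdh on the 6 arrays. For β-actin it ran from 0.74 to 1.44. The Gapdh ratios lay above the limit that the study reported for housekeeping genes, and the reason was not tested. The deposited signals were not scaled to a common level, so every difference below is given for deposited log2 values and, where it matters, after quantile normalization, which gives all arrays one distribution.

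All 29 listed fibroblast markers were measured, with summed signals of 92029, 78243 and 72086 on the BPA arrays, against 86552, 88039.6 and 111788 on the vehicle arrays. Krt8, a keratin of mammary epithelium, had signals of 252, 112 and 266 in BPA-exposed stroma, against 164, 157 and 53.2 in vehicle-exposed stroma, while the epithelium arrays of the same 2 exposures read 2082, 3331 and 4085 with BPA and 1909.5, 2663 and 1940.4 with vehicle. Vehicle replicate 3 stood apart in one respect. Its 21 measured markers of keratinised epidermis (of 23 listed) summed to 26337, against 617 and 244 on the other vehicle arrays and 725, 730.3 and 630.3 on the BPA arrays. Krt1, the suprabasal keratin of skin, had a signal of 6277 there and 2.7 to 15.3 on the other arrays. Lor, the main protein of the cornified envelope, had 4897 there and 6.3 to 53.0 elsewhere. The epithelium array labelled vehicle replicate 3 also had the highest epidermal sum of its group, 16103, against 614 and 229.5 on its other vehicle arrays.

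**Figure D1:**
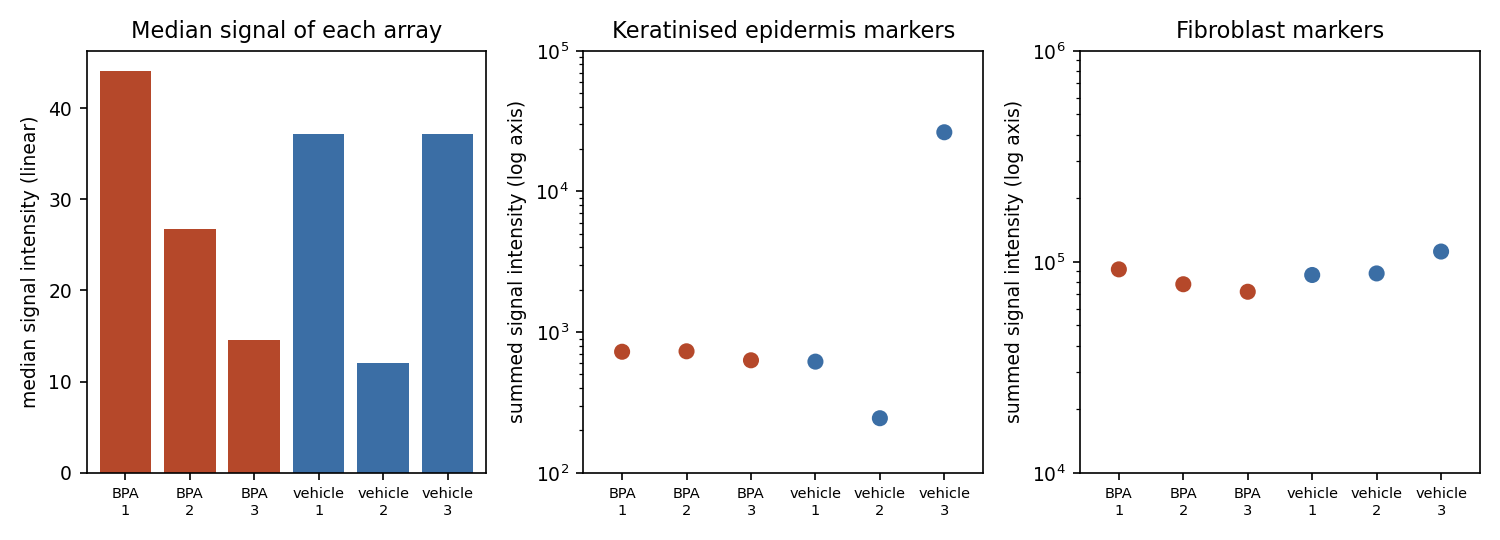
Each array of wild-type peri-ductal stroma: median signal intensity over 45101 probe sets (bars, linear axis from 0), and summed signal of 21 keratinised epidermis markers and 29 fibroblast markers (points, log axes). BPA replicate 3 and vehicle replicate 2 had medians of 14.6 and 12, and vehicle replicate 3 alone had an epidermal sum above 1000.

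Several genes of fat storage and lipid synthesis had higher signals on all 3 BPA arrays, and tenascin C, versican, thrombospondin 2, SFRP2 and several cell division genes had lower ones, but no probe set passed the test across all genes. Limma, which tests each probe set with a spread shared over the 18 stroma arrays, called 0 of 45101 probe sets (0%) at an adjusted p under 0.05, and the lowest adjusted p was 0.9998. An unadjusted p was under 0.05 for 706 probe sets that were higher with BPA (1.57%) and 1021 that were lower (2.26%). After quantile normalization the counts were 1086 higher (2.41%) and 1106 lower (2.45%), again with 0 adjusted calls. All 3 BPA values lay above all 3 vehicle values at 1067 probe sets (2.37%) and below them at 1763 (3.91%). The methods' t-test with its 2-fold cutoff gave 320 higher and 381 lower probe sets, and 0 after Benjamini-Hochberg adjustment. Counts this size moved with single arrays: the split of higher and lower was 337 and 1528 without vehicle replicate 2, 1738 and 834 without vehicle replicate 3, 1487 and 941 without vehicle replicate 1, 423 and 2140 without BPA replicate 1, 546 and 996 without BPA replicate 2, and 1280 and 579 without BPA replicate 3. Vehicle replicate 2 was the lowest of the 6 arrays at 67.3% of the probe sets in the higher group, against 34.8% of all probe sets, and BPA replicate 3 was the lowest at 55.0% of those in the lower group, against 32.9% of all. Each difference named below is therefore a description of these 6 arrays: its adjusted p was at least 0.9998. Fewer cells of a type and less RNA per cell cannot be told apart in such pooled tissue.

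Genes that make and store fat leaned to the higher side. Of 44 lipid-handling genes, 40 were measured at their brightest probe set, 28 had a positive difference, and their median log2 difference was 0.46, against -0.10 over all 18194 genes. It was 0.67 after quantile normalization and 0.81 without both dim arrays. This lean was not particular to fat genes: the smooth muscle and pericyte list, 16 genes, had a median of 0.48. That median was 0.52 after quantile normalization and 0.17 without both dim arrays. Unadjusted p was under 0.05 for 4 of the 40 on the higher side and 0 on the lower side, against 1.47% and 2.33% of all genes. After quantile normalization it was 5 and 0, against 2.34% and 2.46% of all genes. The 4 were Acacb, Me1, Cidec and Hcar1, and in the same 4 the groups did not overlap with BPA higher, against 2.18% of all genes. The count of 4 became 10 without vehicle replicate 3, 9 without BPA replicate 3, 1 without BPA replicate 1, 2 without vehicle replicate 1 and 0 without vehicle replicate 2 or without both dim arrays, while the median stayed above 0, between 0.17 without BPA replicate 1 and 0.96 without BPA replicate 3. The summed signal of the list was 104351, 92673 and 56599.5 on the BPA arrays, against 53124, 73100.5 and 96645 on the vehicle arrays, so the sums overlapped and vehicle replicate 3 was close to the brighter BPA arrays.

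Hcar1 encodes the lactate receptor of adipocytes, which restrains lipolysis, and its signals were 492, 262 and 149 in BPA-exposed stroma, against 44.4, 14.2 and 120.4 in vehicle-exposed stroma. The log2 difference was 2.66 ± 1.12 (SE, n = 3 arrays each), and it ranged from 1.87 to 3.42 over the alternative settings. Cidec, which fuses lipid droplets into the large droplet of a fat cell, had 1089, 639 and 527 in BPA-exposed stroma, against 163, 108 and 433 in vehicle-exposed stroma. Its difference was 1.86 ± 0.74, 1.65 without both dim arrays, and every BPA array exceeded every vehicle array. Cpt2, the inner-membrane enzyme that admits fatty acids to mitochondrial oxidation, belonged to no list and was singled out after its values were seen. It had 717, 319 and 258 in BPA-exposed stroma, against 80.3, 49.3 and 189.6 in vehicle-exposed stroma, a difference of 2.10 ± 0.83. In all 3 genes the highest vehicle value was that of replicate 3.

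Acacb makes the malonyl-CoA that holds back fatty acid entry into mitochondria. It read 358, 216 and 154 in BPA-exposed stroma, against 17.5, 1.0 and 153 in vehicle-exposed stroma, so BPA replicate 3 and vehicle replicate 3 were nearly equal, and the difference of 4.04 ± 1.38 was 2.43 without both dim arrays. Me1, the cytosolic malic enzyme that supplies NADPH for lipid synthesis, showed the same shape, with 600.2, 534 and 443 in BPA-exposed stroma, against 151, 1.5 and 431 in vehicle-exposed stroma. The log2 difference was 3.50 ± 1.39, and 1.15 without both dim arrays. A second Me1 probe set with overlapping groups gave 1.63 ± 1.36. Acaca, the enzyme that makes malonyl-CoA for fatty acid synthesis, overlapped between groups at 1165, 813 and 880.1 in BPA-exposed stroma, against 311, 121 and 1078 in vehicle-exposed stroma.

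Abundant products of fat cells did not separate the groups. Adipoq, the adipokine adiponectin, read 7796, 5599 and 2973 in BPA-exposed stroma, against 2407, 3415 and 5898 in vehicle-exposed stroma, a difference of 0.47 ± 0.62. Scd1, the desaturase that makes monounsaturated fatty acids, read 6305, 7363 and 3958 in BPA-exposed stroma, against 1295, 1339 and 5989 in vehicle-exposed stroma, where BPA replicate 3 lay below vehicle replicate 3 and the other BPA arrays lay above all vehicle arrays. Gpam (first step of glycerolipid synthesis), Dgat1 (last step of triglyceride synthesis) and Pnpla2 (the triglyceride lipase ATGL) differed by 1.17 ± 0.71, 0.96 ± 0.71 and 0.90 ± 0.74, all with overlap on the deposited scale and none after quantile normalization. Fabp4, a fatty acid carrier of fat cells, read 1507, 979.5 and 477 in BPA-exposed stroma, against 458, 413 and 1292 in vehicle-exposed stroma at the probe set the study named. The study printed group means for that Fabp4 probe set, with both genotypes pooled, that lie far above all of these values. The reason for the mismatch was not tested, so these values do not stand for the study's Fabp4 measurement. The 12 measured adipocyte markers of 14 listed had a median of 0.49 (0.62 after quantile normalization), between 0.13 without BPA replicate 1 and 1.08 without BPA replicate 3, and sums of 46154, 37496 and 26620.1 on the BPA arrays, against 22413, 32556 and 40033 on the vehicle arrays, which overlapped.

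Pparg, the master regulator of fat-cell formation, had signals of 2115, 1093 and 435 in BPA-exposed stroma, against 363, 390.3 and 1340.1 in vehicle-exposed stroma. BPA replicates 1 and 2 exceeded vehicle replicates 1 and 2, vehicle replicate 3 exceeded BPA replicates 2 and 3, and the difference was 0.80 ± 0.73. Among 25 adipogenic regulators measured of 27, 1 was higher at an unadjusted p under 0.05 (4%, beside 1.47% of all genes) and 0 were lower. The median was 0.04, 0.22 after quantile normalization, and between -0.33 without vehicle replicate 2 and 0.59 without BPA replicate 3. The higher gene was Prdm16, which directs brown and beige fat cells, at 452, 203 and 394 in BPA-exposed stroma, against 54, 7.4 and 273 in vehicle-exposed stroma, a difference of 2.79 ± 1.11 that was 1.32 without both dim arrays. Ebf3, a factor of the early B-cell family expressed in adipose precursors, was lower on every BPA array, 684, 435 and 358 in BPA-exposed stroma, against 778, 2466 and 1499 in vehicle-exposed stroma. The 16 measured preadipocyte genes had a median of 0.22. Srebf1, which activates genes of lipid synthesis, read 2139.8, 2498 and 795 in BPA-exposed stroma, against 639, 494 and 2316 in vehicle-exposed stroma.

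**Figure D2:**
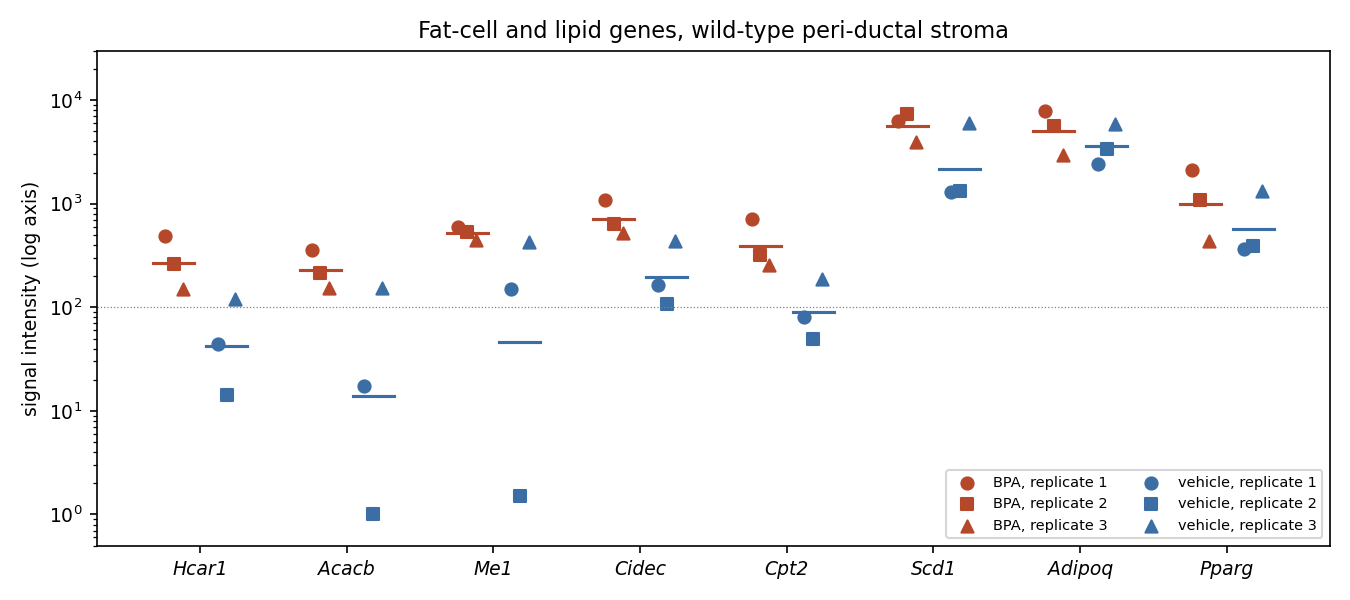
Signal intensity (log axis) of fat-cell and lipid genes on each of 3 BPA and 3 vehicle arrays of wild-type peri-ductal stroma, with symbols for the replicate number and bars at the geometric mean; the dotted line marks a signal of 100. Hcar1, Acacb, Me1, Cidec and Cpt2 did not overlap between exposures, while Scd1, Adipoq and Pparg did, and vehicle replicate 3 was the highest vehicle array for each gene plotted.

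The promoters of the 4 lipid genes with an unadjusted p under 0.05 are printed at their first listed start, as RefSeq gives them for GRCm38.p6. Each runs from 250 bases before the transcription start to 50 after it. They show whether genes that stood together here share an exact copy of a nuclear receptor half-site. Capitals mark AGGTCA on either strand (TGACCT on the opposite one), the element that PPARγ, its partner RXR and other nuclear receptors bind, alone or in pairs.
Hcar1, chr5:123879954-123880253, minus strand: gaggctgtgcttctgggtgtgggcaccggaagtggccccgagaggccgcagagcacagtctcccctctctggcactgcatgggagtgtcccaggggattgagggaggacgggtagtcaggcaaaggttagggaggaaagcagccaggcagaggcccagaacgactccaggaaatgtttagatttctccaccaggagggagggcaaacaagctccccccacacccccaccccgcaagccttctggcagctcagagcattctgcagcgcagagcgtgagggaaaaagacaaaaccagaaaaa
Cidec, chr6:113435711-113436010, minus strand: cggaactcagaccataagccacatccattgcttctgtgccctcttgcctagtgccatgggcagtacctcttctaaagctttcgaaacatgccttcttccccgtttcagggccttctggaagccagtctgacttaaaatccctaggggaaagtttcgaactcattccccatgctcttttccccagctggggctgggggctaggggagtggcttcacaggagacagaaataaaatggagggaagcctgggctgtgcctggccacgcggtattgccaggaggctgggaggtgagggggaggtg
Acacb, chr5:114165268-114165567, plus strand: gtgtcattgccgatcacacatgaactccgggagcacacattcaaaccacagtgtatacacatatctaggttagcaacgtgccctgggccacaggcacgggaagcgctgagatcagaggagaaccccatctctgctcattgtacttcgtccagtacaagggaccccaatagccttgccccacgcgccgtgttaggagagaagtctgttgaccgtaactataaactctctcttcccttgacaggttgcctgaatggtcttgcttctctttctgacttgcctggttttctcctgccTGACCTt
Me1, chr9:86695865-86696164, minus strand: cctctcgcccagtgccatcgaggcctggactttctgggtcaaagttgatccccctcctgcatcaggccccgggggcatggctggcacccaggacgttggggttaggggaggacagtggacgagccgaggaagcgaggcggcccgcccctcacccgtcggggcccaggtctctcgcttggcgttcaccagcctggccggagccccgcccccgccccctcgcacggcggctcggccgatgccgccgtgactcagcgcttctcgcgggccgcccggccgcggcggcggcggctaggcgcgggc
Acacb had 1 exact match, and Hcar1, Cidec and Me1 had no exact match in these windows. Variants of the half-site were not searched, so a window without a match may still hold a receptor site. Of the 3 starts listed for Pparg, 2 had 1 match each. AGGTCA was present in 16.3% of all 32851 promoters of that length, and in 18 of the 139 promoters listed for the genes examined (12.9%), which covered 106 of 147 genes.

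Matrix genes leaned to the lower side, as did lists of unlike genes such as splicing. Tnc encodes tenascin C, a glycoprotein of mesenchyme next to growing ducts, and read 874, 1351 and 771 in BPA-exposed stroma, against 2049, 2474 and 1867 in vehicle-exposed stroma at the probe set the study named. All BPA arrays were below all vehicle arrays, the log2 difference was -1.13 ± 0.63, and it lay between -1.37 and -0.78 in every alternative setting. After quantile normalization the difference was -0.85 and the groups overlapped. Vcan, the large proteoglycan versican, read 2937, 3346 and 2038 in BPA-exposed stroma, against 4812, 6284 and 4781 in vehicle-exposed stroma at its brightest probe set, a difference of -0.95 ± 0.60, and 540.1, 519 and 194 in BPA-exposed stroma, against 1241, 1269 and 804 in vehicle-exposed stroma at the probe set the study named, a difference of -1.51 ± 0.66. Other Vcan probe sets above a signal of 100 gave -0.88 ± 0.63 and -0.25 ± 0.58. Thbs2, the matricellular thrombospondin 2, read 901, 522 and 645 in BPA-exposed stroma, against 1038, 1728 and 1186 in vehicle-exposed stroma, a difference of -0.94 ± 0.63. Col5a3, a fibrillar collagen V chain, read 545, 395 and 343 in BPA-exposed stroma, against 787, 976 and 811 in vehicle-exposed stroma, a difference of -1.03 ± 0.67. Tnc, Vcan, Thbs2 and Col5a3 were lower with BPA in every alternative setting run. Their groups did not overlap on deposited signals, so leaving arrays out could not turn the direction.

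Of 41 measured matrix and matricellular genes (45 listed), 29 had a negative difference. The median was -0.28, and it was -0.10 after quantile normalization, beside -0.10 and -0.02 over all genes. The splicing list described below had medians of -0.33 and -0.15 in these settings. The groups were separate with BPA lower in 3 (7.32%), Tnc, Vcan and Thbs2, against 4.16% of all genes, and in 0 with BPA higher, against 2.18%. No member had an unadjusted p under 0.05 at its brightest probe set. The median lay between -0.59 without vehicle replicate 2 and 0.03 without vehicle replicate 3. Collagen chains (28 of 28 measured) had a median of -0.27, with 2 separate and lower (7.14%, beside 4.16% of all genes). Of 25 measured proteases and inhibitors, 1 was lower at an unadjusted p under 0.05 (4%, beside 2.33% of all genes). It was Mmp7, matrilysin, at 0.9, 1.6 and 3.5 in BPA-exposed stroma, against 9.1, 10.7 and 6.6 in vehicle-exposed stroma, far under a signal of 100 throughout. Reck, a membrane-bound inhibitor of metalloproteinases, was also separate and lower, at 236, 115 and 88.8 in BPA-exposed stroma, against 429, 379 and 270.2 in vehicle-exposed stroma.

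Secreted signals and their regulators held several of the lower genes. Sfrp2, a secreted frizzled-related modulator of Wnt signalling, read 1272, 510.0 and 676 in BPA-exposed stroma, against 1429, 4122 and 4069.7 in vehicle-exposed stroma. Its highest BPA value was under its lowest vehicle value, and the difference was -1.92 ± 0.81. Tbx3, a T-box factor needed for the mammary placode, read 50.4, 11.2 and 16 in BPA-exposed stroma, against 386, 679 and 75.9 in vehicle-exposed stroma at its brightest probe set, a difference of -3.70 ± 1.16. Another Tbx3 probe set that reached a signal of 100 gave -1.16 ± 0.86, and 3 dimmer ones had differences of both signs. Dkk3, of the dickkopf family of secreted proteins, read 102, 31.4 and 8.6 in BPA-exposed stroma, against 149, 94.5 and 276 in vehicle-exposed stroma, overlapping by BPA replicate 1. Sfrp1 went the other way, at 124, 87.5 and 128 in BPA-exposed stroma, against 35.7, 9.3 and 60.5 in vehicle-exposed stroma. Of 47 measured genes of stromal signalling (49 listed), 3 were lower and 0 higher at an unadjusted p under 0.05 (6.38% and 0%, beside 2.33% and 1.47% of all genes), and the median was -0.36, between -0.66 without BPA replicate 1 and 0.18 without BPA replicate 3.

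Receptors for estrogens showed no common direction. Esr1 (ERα) read 115, 33.4 and 183 in BPA-exposed stroma, against 50.4, 201 and 397 in vehicle-exposed stroma at its brightest probe set, with overlap and a difference of -0.84 ± 0.98; the 2 other probe sets gave 1.00 ± 1.25 and 1.07 ± 1.02. Gper1 read 193, 150.2 and 31 in BPA-exposed stroma, against 162, 1207 and 599 in vehicle-exposed stroma, a difference of -2.34 ± 0.98 that was -0.87 without both dim arrays, while its other, dimmer probe set gave -0.01 ± 1.13. Ncoa2, a coactivator of steroid receptors, read 1241, 168 and 152 in BPA-exposed stroma, against 1079, 947 and 1095 in vehicle-exposed stroma, so BPA replicate 1 was above the vehicle arrays and the other BPA arrays were well below them. Esr2 (ERβ), Esrrg (an estrogen-related receptor) and Thrb (a thyroid hormone receptor) stayed under a signal of 100 on all 6 arrays. Thra, the other thyroid hormone receptor, read 779, 501 and 531 in BPA-exposed stroma, against 519, 1006 and 748 in vehicle-exposed stroma, and Nr3c1, the glucocorticoid receptor, 346, 145 and 375 in BPA-exposed stroma, against 248, 13.9 and 1151 in vehicle-exposed stroma. Of 24 measured estrogen-responsive genes (30 listed), 0 were higher and 1, Gper1, was lower at an unadjusted p under 0.05 (4.17%, beside 2.33% of all genes), and 0 were lower after quantile normalization. Their median was -0.06, between -0.59 without vehicle replicate 2 and 0.32 without vehicle replicate 3. Among 30 receptors measured of 32, Gper1 and Ncoa2 were lower by the same measure (6.67%) and 0 were higher, and 1 was lower after quantile normalization. The median was -0.02, between -0.60 without vehicle replicate 2 and 0.41 without vehicle replicate 1.

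Adhesion genes were split. Itga7, an integrin chain that binds laminin, was higher on every BPA array, at 174, 176 and 326 in BPA-exposed stroma, against 66.1, 45.1 and 55.9 in vehicle-exposed stroma, a difference of 1.97 ± 0.71 that ranged from 1.52 to 2.12 over the alternatives. Its mean passed 100 only in the BPA group. Itga5, the fibronectin receptor chain, was separate and lower, at 300.1, 212 and 118 in BPA-exposed stroma, against 568, 363 and 434 in vehicle-exposed stroma. Itga1, a collagen receptor chain, read 524, 347 and 82.9 in BPA-exposed stroma, against 474, 1275 and 1403 in vehicle-exposed stroma, with overlap through BPA replicate 1. Parva and Parvb, parvins that link integrins to actin, were separate and lower, with differences of -1.43 ± 0.73 and -2.60 ± 1.33 that were -0.37 and -0.98 without both dim arrays. Over 48 measured focal adhesion genes (53 listed), 1 was higher and 1 lower at an unadjusted p under 0.05 (2.08% each, beside 1.47% and 2.33% of all genes). The groups were separate and higher in 1 and separate and lower in 5 (2.08% and 10.4%, beside 2.18% and 4.16% of all genes), and the median of -0.07 turned to 0.12 after quantile normalization.

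Actin-binding proteins were more often separate on the lower side: 9 of 46 measured genes (50 listed; 19.6%), beside 4.16% of all genes, and 1 on the higher side (2.17%), beside 2.18% of all genes. Pfn2, a profilin that feeds actin monomers to filaments, read 1704, 1001 and 181 in BPA-exposed stroma, against 2099, 2086 and 2948 in vehicle-exposed stroma, a difference of -1.80 ± 0.84. Ezr and Msn, ezrin and moesin, which tie actin to the membrane, read 50.9, 61.8 and 45 in BPA-exposed stroma, against 154, 227 and 163 in vehicle-exposed stroma and 1618, 1086 and 711 in BPA-exposed stroma, against 1959, 2029 and 2709.5 in vehicle-exposed stroma. Their differences were -1.78 ± 0.88 and -1.04 ± 0.54, and both kept no overlap after quantile normalization. The list median was -0.24, and -0.07 after quantile normalization. At an unadjusted p under 0.05, 1 of the 46 was lower (2.17%, beside 2.33% of all genes), and 0 after quantile normalization. All 46 reached a mean signal of 100 in 1 of the groups, beside 8187 of all 18194 genes. The shares without overlap therefore compare genes of unlike brightness.

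**Figure D3:**
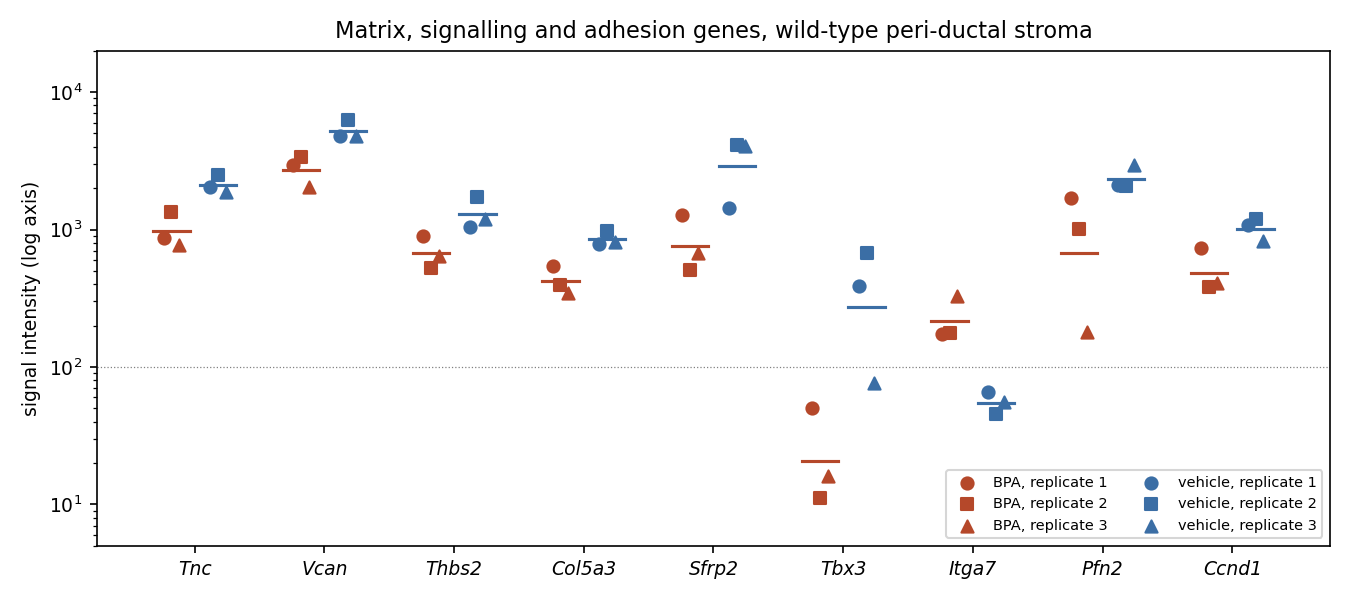
Signal intensity (log axis) of matrix, signalling and adhesion genes on each of 3 BPA and 3 vehicle arrays of wild-type peri-ductal stroma, with symbols for the replicate number, bars at the geometric mean and a dotted line at 100. Itga7 alone was higher on all BPA arrays; the other 8 genes were lower on all BPA arrays.

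Cell division genes leaned to the lower side. Of 50 measured genes (51 listed), 36 had a negative difference and 14 a positive one, and after quantile normalization 19 were positive. Groups were separate and lower in 9 (18%), against 4.16% of all genes, and separate and higher in 0, against 2.18%. An unadjusted p was under 0.05 for 0 of the 50. A mean signal of 100 in 1 of the groups was reached by 47 of the 50, beside 8187 of all 18194 genes. Aurkb, the kinase of chromosome alignment and cytokinesis, read 348, 210.3 and 143 in BPA-exposed stroma, against 435, 794 and 451 in vehicle-exposed stroma. Pold1, the catalytic subunit of a replicative polymerase, read 1280.1, 399.7 and 547 in BPA-exposed stroma, against 1301, 1731 and 1462 in vehicle-exposed stroma, where BPA replicate 1 and vehicle replicate 1 nearly met. Rrm2, which makes deoxynucleotides, read 2182, 1589 and 1195 in BPA-exposed stroma, against 2473, 3206 and 3429.5 in vehicle-exposed stroma, Ccna2 (cyclin A2) 1300.1, 1156 and 599 in BPA-exposed stroma, against 1853, 2092 and 1664 in vehicle-exposed stroma and Prc1 (a spindle midzone protein) 448, 279.5 and 332 in BPA-exposed stroma, against 756, 1269 and 599 in vehicle-exposed stroma. Ccnd1, cyclin D1, was separate and lower at the probe set the study named, 736, 379 and 411 in BPA-exposed stroma, against 1076, 1186 and 824 in vehicle-exposed stroma, a difference of -1.07 ± 0.68, but its 2 other probe sets gave -0.37 ± 0.63, at the brighter one, and -0.11 ± 0.61. The median of the list was -0.37, between -0.67 without BPA replicate 1 and 0.00 without BPA replicate 3, and -0.16 after quantile normalization.

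Among lists of housekeeping processes, the splicing list leaned lower much as the matrix list did. Of 40 measured splicing genes (45 listed), 34 had a negative difference, the median was -0.33 (-0.15 with 13 positive after quantile normalization) and 3 were separate and lower (7.5%, beside 4.16% of all genes), among them Srsf2, a serine and arginine rich splicing factor, at 1461, 1217 and 1109 in BPA-exposed stroma, against 2056, 2826 and 2583 in vehicle-exposed stroma. Oxidative phosphorylation (44 of 54 measured) and ribosomal proteins (32 of 48) had medians of 0.05 and -0.10, with 0 genes at an unadjusted p under 0.05. After quantile normalization the medians were 0.29, with 40 of 44 genes positive, and 0.08, and without both dim arrays they were 0.40 and 0.10. Cholesterol synthesis genes (20 of 24) had a median of 0.12. Stress and immediate early genes (30 of 30) had a median of -0.61 that was -0.27 after quantile normalization, and Hspa1b, an inducible heat shock protein, was separate and lower, at 54.9, 93.9 and 29.1 in BPA-exposed stroma, against 189.5, 134 and 215 in vehicle-exposed stroma.

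Markers of other cell types differed between the arrays. Epithelial markers, 40 of 42 measured, summed to 7434, 6032 and 6996 on the BPA arrays, against 7792, 10333 and 18169 on the vehicle arrays. Their median difference was -0.61, and 3 were lower and 0 higher at an unadjusted p under 0.05 (7.5% and 0%, beside 2.33% and 1.47% of all genes). Perp, a protein of desmosomes in stratified epithelia, read 164, 26.2 and 17.2 in BPA-exposed stroma, against 402, 328 and 1893 in vehicle-exposed stroma, a difference of -3.91 ± 1.22. Pkp1, the desmosomal plakophilin 1, read 39.6, 4.7 and 44 in BPA-exposed stroma, against 72.4, 65.8 and 1258 in vehicle-exposed stroma, and Grhl1, a grainyhead factor of epidermis, 38.1, 1.7 and 12.4 in BPA-exposed stroma, against 39.9, 37.8 and 58.3 in vehicle-exposed stroma. Without vehicle replicate 3, which carried the epidermal signal, 2 of the 40 epithelial markers were lower, beside 343 of all 18194 genes, and the median was -0.54. Trim29, which is expressed in basal epithelial cells, was lower on every BPA array, 39.6, 24.1 and 20.3 in BPA-exposed stroma, against 67.8, 150.3 and 118 in vehicle-exposed stroma, a difference of -1.99 ± 0.57 that lay between -2.31 and -1.41 in every alternative. The basal keratins Krt5 and Krt14 read 68.6, 91.9 and 11.2 in BPA-exposed stroma, against 89.8, 59 and 689.9 in vehicle-exposed stroma and 55.1, 39.9 and 87 in BPA-exposed stroma, against 127, 26.6 and 694 in vehicle-exposed stroma. The median of the epidermal list was -1.35 with all arrays and 0.94 without vehicle replicate 3. The part of epithelial or epidermal RNA in the differences of other genes was not tested.

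Endothelial markers, 22 of 22 measured, summed to 11943, 9114 and 2712 on the BPA arrays, against 9186, 7741 and 13013 on the vehicle arrays, so BPA replicate 3 held the least. Of the 22, 10 had a positive difference and 12 a negative one, and the median was -0.26, 0.02 after quantile normalization, and between -0.84 without vehicle replicate 2 and 0.49 without BPA replicate 3. Pecam1, the endothelial adhesion molecule CD31, read 721, 452 and 93.1 in BPA-exposed stroma, against 1196, 1204 and 778 in vehicle-exposed stroma, a difference of -1.74 ± 0.76 that was -0.76 without both dim arrays, and Plvap, a protein of fenestrated vessels, read 510.4, 404 and 104 in BPA-exposed stroma, against 563, 972 and 646 in vehicle-exposed stroma. Flt1, a receptor for VEGF, had a positive difference of 1.75 ± 0.97 with overlap, at 343, 229 and 50.8 in BPA-exposed stroma, against 88, 8.7 and 137 in vehicle-exposed stroma. Leukocyte markers, 28 of 29 measured, summed to 26108, 25314 and 27791 on the BPA arrays, against 24807, 33601 and 40144 on the vehicle arrays, and 2 were lower and 1 higher at an unadjusted p under 0.05 (7.14% and 3.57%, beside 2.33% and 1.47% of all genes). The median was -0.34, and after quantile normalization it was -0.13, with 0 lower and 1 higher. Ptprc (CD45), which marks all leukocytes, read 144, 137 and 82.8 in BPA-exposed stroma, against 254, 724 and 231 in vehicle-exposed stroma. Cd163, a scavenger receptor of macrophages, read 640.0, 197 and 71.1 in BPA-exposed stroma, against 544, 1524 and 702 in vehicle-exposed stroma. Cd3e, a subunit of the T-cell receptor complex, was the higher one, at 13.5, 26.1 and 7.3 in BPA-exposed stroma, against 3.2, 0.8 and 8.7 in vehicle-exposed stroma, far under a signal of 100, and C1qa, a complement component made by macrophages, had a difference of 1.78 ± 1.19 with overlap. Thy1, a surface protein of fibroblasts, was separate and lower at 275, 77.9 and 241 in BPA-exposed stroma, against 516, 304 and 750.1 in vehicle-exposed stroma, while 27 of 29 fibroblast markers had negative differences around a median of -0.22. After quantile normalization 9 of the 29 were positive and the median was -0.09. Skeletal muscle markers summed to only 465 to 1013 on the 6 arrays.

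**Figure D4:**
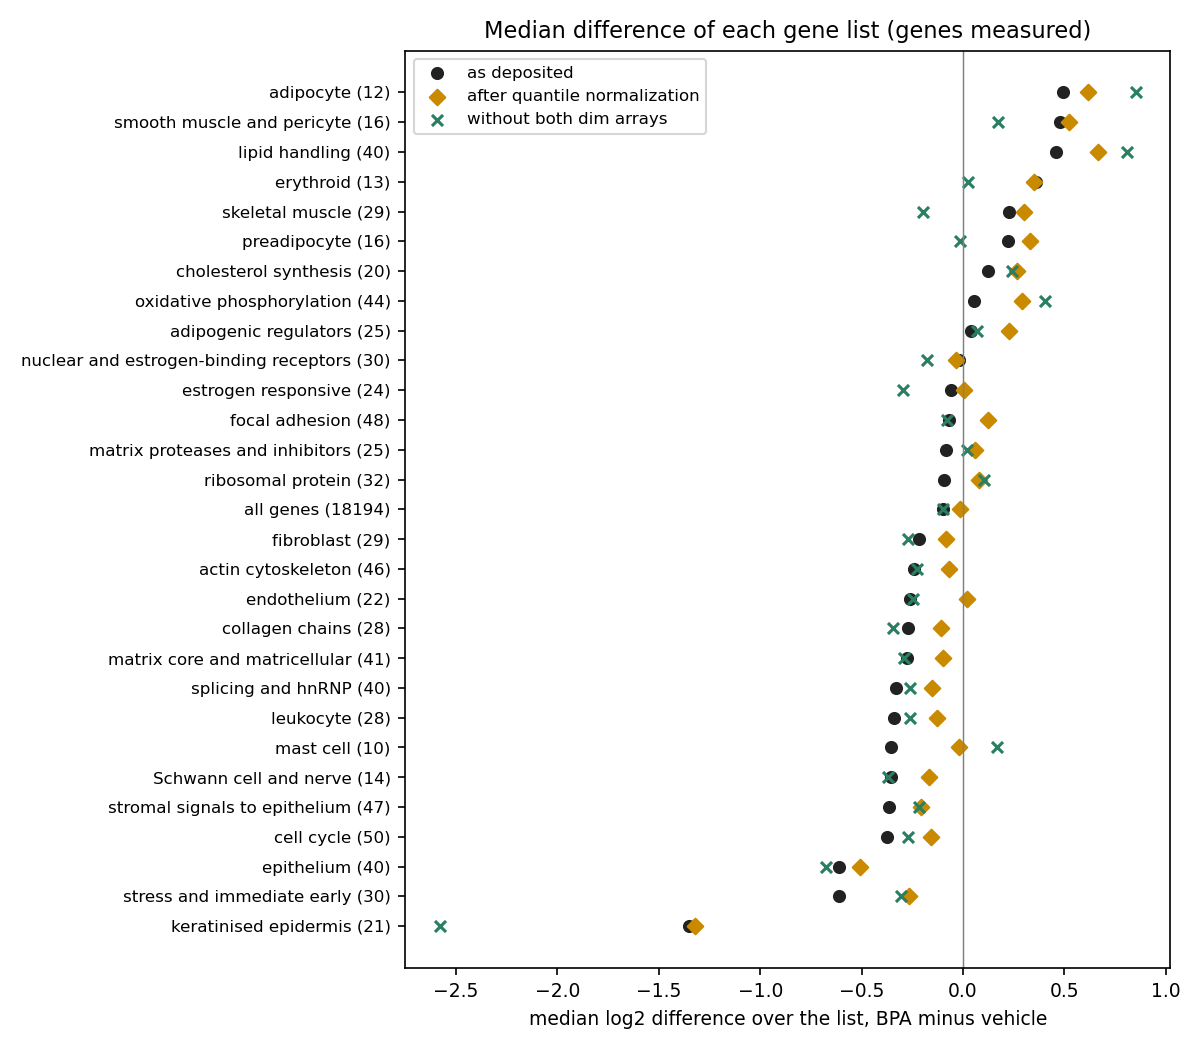
Median log2 difference (BPA minus vehicle) over the measured genes of each list, in wild-type peri-ductal stroma, for deposited signals, after quantile normalization and without both dim arrays; numbers in parentheses are genes measured. Lipid handling and adipocyte lists lay above 0 in all 3 settings. So did the smooth muscle and pericyte, erythroid, cholesterol synthesis, oxidative phosphorylation and adipogenic regulator lists. The epithelium and keratinised epidermis lists were among those below 0 in all 3, as was the median over all genes.

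A rule picked the genes with the widest separation: a mean signal of at least 100 in 1 of the groups, no overlap with and without quantile normalization, and the largest of the smaller of those 2 differences. It passed 146 genes that were higher and 260 that were lower. The 12 highest were Adamts18, Acacb, Slc2a9, C030006K11Rik, Capzb, St6galnac5, Nsd3, Me1, Snhg11, Galnt2, Car4 and Lin54. Adamts18, a secreted metalloproteinase, read 77.4, 69.2 and 231 in BPA-exposed stroma, against 5.7, 0.9 and 30.1 in vehicle-exposed stroma, a difference of 4.32 ± 1.44. Slc2a9, a urate transporter, read 327, 57.1 and 423 in BPA-exposed stroma, against 25.1, 3.6 and 16.6 in vehicle-exposed stroma, and Snhg11, a noncoding RNA host gene, 286, 613 and 268 in BPA-exposed stroma, against 29, 10.2 and 144 in vehicle-exposed stroma. Car4, a membrane-bound carbonic anhydrase, read 1172, 1315 and 379 in BPA-exposed stroma, against 318, 7.6 and 338 in vehicle-exposed stroma. Vehicle replicate 2 was the lowest array for 11 of the 12 genes.

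The 12 lowest were 5430400D12Rik, Zfp28, Lrrn1, Marchf1, Elovl7, Tsx, Zg16, Mbd1, Robo1, Perp, Smim22 and Septin8. Lrrn1, a leucine-rich repeat membrane protein of neurons, read 32.4, 3.2 and 4.5 in BPA-exposed stroma, against 145, 93.6 and 323 in vehicle-exposed stroma, a difference of -4.40 ± 1.21. Robo1, the receptor for Slit guidance cues, read 18.3, 14.9 and 1.1 in BPA-exposed stroma, against 63, 74 and 174 in vehicle-exposed stroma. Mbd1, which binds methylated DNA, read 121, 32.4 and 1.7 in BPA-exposed stroma, against 187, 649.8 and 316 in vehicle-exposed stroma, and Zfp28, a zinc finger protein, 162, 55 and 0.2 in BPA-exposed stroma, against 187, 688 and 327 in vehicle-exposed stroma. Both had their lowest value on BPA replicate 3, and without both dim arrays their differences were -1.96 and -1.39. Tsx read 15.5, 7.7 and 2.1 in BPA-exposed stroma, against 36.7, 2201 and 51.7 in vehicle-exposed stroma, where vehicle replicate 2 was far above all others. The unannotated transcript 5430400D12Rik had the lowest difference of the 12, -5.31 ± 1.21, from 2.4, 1.4 and 1.6 in BPA-exposed stroma, against 64.1, 291 and 17.8 in vehicle-exposed stroma.

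A narrower group, added after the values were seen, kept only genes with a mean of at least 100 in both groups, ranked by the smallest difference with deposited signals, with quantile normalization and without both dim arrays. It held 62 genes that were higher and 153 that were lower. Besides Cpt2, Cidec and Car4, its 10 highest held Ccdc47, a membrane protein of the endoplasmic reticulum, at 921, 1012 and 798 in BPA-exposed stroma, against 472, 203 and 208 in vehicle-exposed stroma, a difference of 1.74 ± 0.56. Tgm2, tissue transglutaminase, which cross-links matrix proteins, read 423, 675 and 458 in BPA-exposed stroma, against 110.3, 134 and 212 in vehicle-exposed stroma. Bak1, a pore-forming protein of apoptosis, read 399, 415 and 366 in BPA-exposed stroma, against 99.2, 155 and 234 in vehicle-exposed stroma, and Serpinb1a, an inhibitor of neutrophil proteases, 416, 536 and 891 in BPA-exposed stroma, against 93.1, 193 and 295 in vehicle-exposed stroma. Lrig1, a negative regulator of ErbB receptors, read 1215, 1289 and 813 in BPA-exposed stroma, against 316, 109 and 658 in vehicle-exposed stroma. Fars2 and Pex6 completed the 10.

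Its 10 lowest were led by Rnf115, a ubiquitin ligase, at 211, 124 and 33.8 in BPA-exposed stroma, against 1129, 504 and 626 in vehicle-exposed stroma, a difference of -2.88 ± 0.81. Tox2, an HMG-box protein, read 198, 93.7 and 165 in BPA-exposed stroma, against 544, 776 and 581 in vehicle-exposed stroma, a difference of -2.11 ± 0.64, with less than a 3-fold range within each exposure. Cul3, the scaffold of a family of ubiquitin ligases, read 329, 255 and 172 in BPA-exposed stroma, against 1172, 668 and 1361 in vehicle-exposed stroma. Cd55, which protects cells from complement, read 432, 289 and 51.9 in BPA-exposed stroma, against 1821, 1075 and 833 in vehicle-exposed stroma, and Sf3a2, a subunit of the U2 spliceosome particle, 583, 68.2 and 178 in BPA-exposed stroma, against 775, 1558 and 1063 in vehicle-exposed stroma. Ccdc77, Tnrc6a, Sfrp2, Nhsl1 and Phykpl were the others.

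The same BPA minus vehicle differences were read in ERα(-/-) stroma and set beside those of wild type. Esr1 itself, at the probe set above, read 115, 33.4 and 183 in BPA-exposed and 50.4, 201 and 397 in vehicle-exposed wild-type stroma. In ERα(-/-) stroma it read 13.9, 49.9 and 81.8 with BPA and 26.3, 34.6 and 37.6 with vehicle. Wild-type BPA replicate 2 and vehicle replicate 1 lay within the knockout range, the other wild-type arrays lay above it, and where the probe set lies relative to the deletion is not given in the sources used here. Wild-type and knockout fetuses of one exposure may have shared litters. ERα(-/-) BPA replicate 1 stood apart by skeletal muscle markers, which summed to 33302 there and to 667 to 1006 on the other knockout stroma arrays. No probe set passed an adjusted p under 0.05 for the difference between genotypes (0 of 45101; lowest adjusted p 0.9997), and an unadjusted p was under 0.05 for 387 probe sets with a more positive difference in wild type (0.858%) and 1271 with a more negative one (2.82%). The median of wild type minus knockout over all probe sets was -0.45, and after quantile normalization it was 0.01 with 966 and 867 probe sets. Without ERα(-/-) BPA replicate 1 the counts were 337 and 1173.

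Hcar1, Cidec and Acacb had positive differences of over 1 in both genotypes, and Me1 a smaller one in the knockout. The Hcar1 difference was 2.66 ± 1.12 in wild-type stroma and 3.08 ± 1.12 in ERα(-/-) stroma, where it read 342, 167 and 266 with BPA and 78.3, 83.7 and 3.8 with vehicle. Wild type minus knockout was -0.42 ± 1.58. The study had named Hcar1 from BPA and vehicle arrays of both genotypes pooled, so its knockout values had helped to choose it. Its rise in both genotypes is therefore a description only. Cidec differed by 1.86 in wild type and 1.25 in the knockout, Acacb by 4.04 and 2.48, and Cpt2, chosen after its values were seen, by 2.10 and 1.08. Me1 differed by 3.50 ± 1.39 in wild type and 0.82 ± 1.39 in the knockout, a gap of 2.69 ± 1.97. The median over the 40 lipid-handling genes was 0.46 in wild type and 0.85 in the knockout, beside medians of -0.10 and 0.37 over all genes. After quantile normalization the list medians were 0.67 and 0.58. Itga7 differed by 1.97 ± 0.71 in wild type and 0.72 ± 0.71 in the knockout. Cidec, Acacb, Cpt2, Me1 and Itga7 had been named through their wild-type differences. Comparisons of genotype for them reuse those values and are a description only.

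Several genes that were lower with BPA in wild type were not lower in the knockout. Trim29 differed by -1.99 ± 0.57 in wild type and 0.74 ± 0.57 in the knockout, where it read 32.6, 61.5 and 40.1 with BPA and 29.2, 15.8 and 37.1 with vehicle. Wild type minus knockout was -2.73 ± 0.80 (limma interaction, adjusted p = 0.9997), and -2.93 without ERα(-/-) BPA replicate 1. The study had listed Trim29 for a fall with exposure in wild type but not in the knockout on these same arrays. 5430400D12Rik and Lrrn1 had been picked for their low wild-type differences and passed the signal filter only through the vehicle group. Tnrc6a, Ccdc77 and Sfrp2 had also been picked for low wild-type differences, and Cd163 and Dkk3 for a low wild-type p within their lists. The gaps of all these genes reuse values that chose them and are a description only. For 5430400D12Rik the gap was -8.42 ± 1.71, and the gene read 41.3, 46.3 and 45.9 with BPA and 4.8, 2.8 and 10.1 with vehicle in the knockout. Tnrc6a, whose protein binds Argonaute in microRNA silencing, read 763, 192 and 259 in BPA-exposed stroma, against 790.0, 2458 and 1976 in vehicle-exposed stroma in wild type. In the knockout it had 2009, 1160.2 and 1176 with BPA and 869, 92.2 and 372 with vehicle, a gap of -4.40 ± 1.19. Lrrn1, Cd163, Dkk3 and Ccdc77 had gaps of -6.67, -4.12, -3.96 and -3.73, and of -6.76, -4.41, -4.15 and -3.84 without the array that carried muscle signal. The Tnc gap of -1.19 ± 0.89 was within 2 standard errors of 0, as was that of Sfrp2 at -1.65 ± 1.15.

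**Figure D5:**
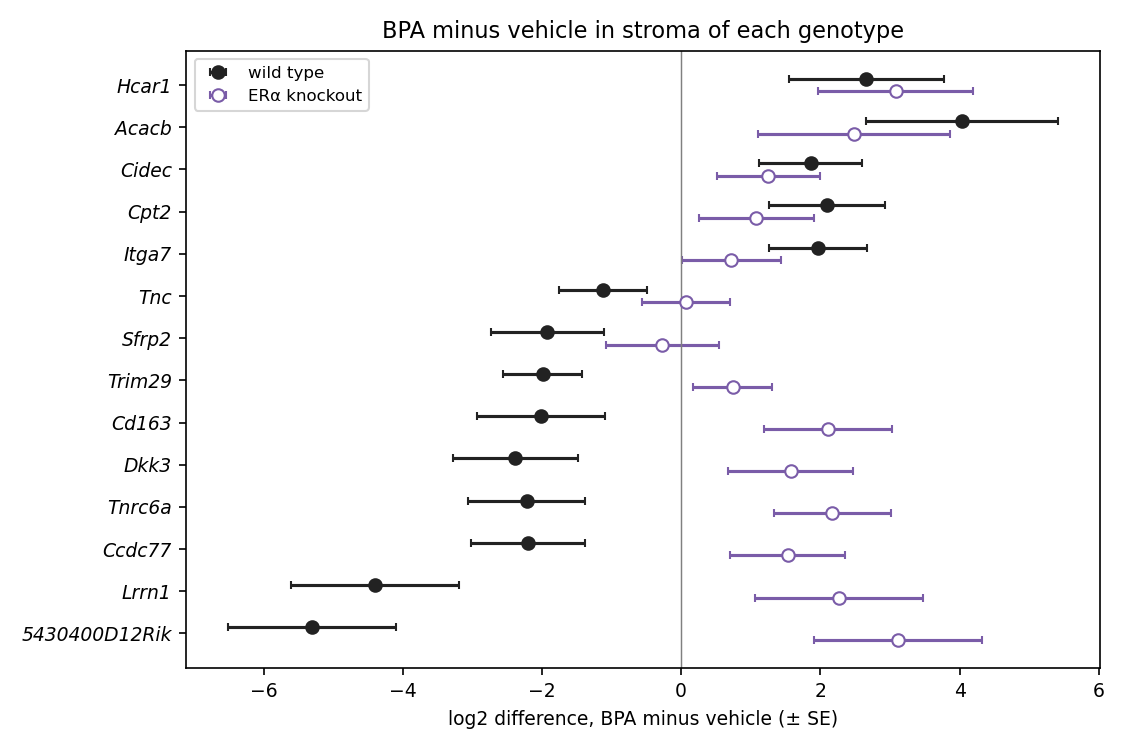
Log2 difference (BPA minus vehicle, ± SE from limma, n = 3 arrays per group) in wild-type and ERα knockout stroma, for genes described in the text. The genes had been named through values of these same arrays. The lipid genes Hcar1, Acacb, Cidec and Cpt2 were above 0 in both genotypes, and Trim29, Cd163, Dkk3, Tnrc6a, Ccdc77, Lrrn1 and 5430400D12Rik were below 0 in wild type and above 0 in the knockout.

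Against EE2, BPA-exposed wild-type stroma again had 0 probe sets at an adjusted p under 0.05 (lowest adjusted p 0.73), with 786 higher (1.74%) and 936 lower (2.08%) at an unadjusted p under 0.05. Both compounds were given over the same days at 1 dose each, 250 ng of BPA and 10 ng of EE2 per kg and day, so the values stand side by side at unlike doses. EE2 replicate 2 had a skeletal muscle sum of 46365, against 1144 and 730.0 on the other EE2 arrays, and without it the counts were 850 and 944. The genes below had been named through values of the same BPA arrays. Their BPA minus EE2 differences reuse those values and are a description only. The share of all genes without overlap between BPA and EE2 is not given here. Hcar1 read 492, 262 and 149 with BPA and 122, 131 and 29.4 with EE2. The groups did not overlap, and BPA minus EE2 was 1.79 ± 1.12. Cidec read 1089, 639 and 527 with BPA and 292, 289 and 145 with EE2, a BPA minus EE2 difference of 1.64 ± 0.74 and no overlap. Acacb read 358, 216 and 154 with BPA and 96.4, 126 and 43.7 with EE2. The difference was 1.5 ± 1.38 with no overlap. For EE2 minus vehicle, Acacb was 2.54, Hcar1 0.88 and Cidec 0.23. Me1 read 600.2, 534 and 443 with BPA and 352, 379 and 543 with EE2, a difference of 0.32 ± 1.39 with overlap, and Me1 was 3.18 for EE2 minus vehicle. Tgm2 read 423, 675 and 458 with BPA and 94.6, 737 and 47.7 with EE2, where EE2 replicate 2 was above all BPA arrays. Tnc read 874, 1351 and 771 with BPA and 937, 1397 and 1541 with EE2, a difference of -0.38 ± 0.63. Trim29 read 39.6, 24.1 and 20.3 with BPA and 27, 28.8 and 28.6 with EE2, a difference of -0.07 ± 0.57, and the vehicle arrays lay above all 6 of these values.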

How the data were processed

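RNA from laser-captured peri-ductal stroma was measured on Affymetrix Mouse Genome 430 2.0 arrays. The deposited values are linear signal intensities per probe set that the authors made with the GCOS software (version not given in the sources used here); array medians differ, so they are not scaled to one level. The study's methods name RMA and a log transform, which the deposited values do not show. Signals were raised to at least 0.1 and put on the log2 scale. All 45101 probe sets of the 18 stroma arrays (6 groups of 3), 64 control probe sets included, were fitted with limma 3.58.1 in R 4.3.3 (lmFit, eBayes) and adjusted by Benjamini-Hochberg. Interaction and BPA minus EE2 contrasts came from the same fit. The methods' t-test was a Welch test on the same values. Of the probe sets, 34958 carried 1 gene symbol (18194 genes), 932 several and 9211 none, and names came only from the first kind. Array annotation came from GEO's platform table, with Entrez IDs checked against RefSeq, which changed 0 symbols. A gene in a list was read at its brightest probe set. Groups were taken from the labels.

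Genes were named by rule: those the study discussed (at its probe set, else the brightest), the 12 highest and 12 lowest separate genes as described, up to 4 per list with the lowest p (under 0.2), and genes needed for a role. The members and lists were chosen with earlier results of these data known. Genes bright in both groups, Cpt2 among them, were added after their values were seen. Alternatives were quantile normalization, an offset of 16, a signal of at least 100 in 1 group, only the groups compared, array weights, no dim arrays, a replicate block and each array left out; quantile normalization combined with the dim arrays left out or with the signal filter, and leaving out control probe sets, were added after seeing the data. The fitting code was tested on simulated data with known changes. The number of arrays limits the precision.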

Additional observations from a re-analysis of the deposited data

How the results depend on the processing

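The count of probe sets at an adjusted p under 0.05 was 0 for all 3 contrasts in every alternative run, except 1 (Srd5a3, adjusted p = 0.042 by limma, lower) without BPA replicate 1, so leaving out single arrays gave 0 to 1. Counts at an unadjusted p under 0.05 moved more. For BPA against vehicle (706 higher, 1021 lower) they were 1086 higher after quantile normalization, 236 higher and 450 lower at a signal of at least 100, 591 lower with only the groups compared, 1180 higher and 2498 lower with array weights, and 420 lower with quantile normalization and the signal filter. Without single arrays they ran from 337 to 1738 higher and 579 to 2140 lower. For wild type minus knockout (387 and 1271) they were 966 more positive after quantile normalization, 60 and 672 at a signal of at least 100, 593 and 2616 with array weights, 863 and 766 with quantile normalization without both dim arrays, and 417 more negative with quantile normalization and the signal filter. Without single arrays they ran from 301 to 676 and from 768 to 2578. For BPA against EE2 (786 and 936) they were 219 and 307 at a signal of at least 100, 1898 and 1820 with array weights, 1572 higher without both dim arrays, and 488 and 410 with quantile normalization and the signal filter, and they ran from 520 to 1261 and from 561 to 2155 without single arrays. Fewer probe sets were tested under the signal filter, and the cause of the other moves was not tested. The methods' t-test gave 701 probe sets, and 238 with an offset of 16. The log2 difference of array medians (0.02) was -0.11 without both dim arrays and ran from -0.53 to 0.43 without single arrays.

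Of 706 probe sets in the higher group, 652 were also higher at an unadjusted p under 0.05 after quantile normalization (92.4% of the 706 and 60.0% of the 1086), but 234 without both dim arrays (33.1% and 38.4% of that setting's 610). On the lower side 832 of 1021 (81.5%) and 363 (35.6%) were shared. The replicate numbers in the labels did not pair the arrays (correlation of deviations 0.08, -0.01 and -0.06 for numbers 1, 2 and 3), and a fit with the number as a block gave 789 higher and 1062 lower.

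Of 148 named probe sets, 137 kept their direction in every alternative. Part of that count was fixed by the choice of genes. Probe sets picked for groups that did not overlap could not turn when arrays were left out, and others were picked for a low p. The probe sets that did turn were as follows. Without both dim arrays Nr3c1 was -1.25, Thra 0.0050, Thrb -0.070, Ndufb3 0.051 and Fcer1a 0.26. With quantile normalization and no dim arrays Nr3c1 was -1.17, Thra 0.069, Myh11 0.078, Ndufb3 0.11 and Fcer1a 0.40. Nr3c1 was -0.74 with array weights. Leaving out single arrays gave Nr3c1 between -1.0 (without vehicle replicate 2) and 2.18, Thrb between -0.24 and 1.01, Ngfr between -0.47 and 3.73, Esr2 between -0.92 and 0.51 (without vehicle replicate 1), Esrrg between -0.19 (without BPA replicate 1) and 1.10, and Krt1 and Lor between -3.94 and 1.65 and between -3.19 and 1.61, positive only without vehicle replicate 3. These are log2 differences, BPA minus vehicle, and both Thrb and Ngfr turned without vehicle replicate 2.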
